A study of Mus musculus with 16 samples.

Results

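Expression of 7 genes that mark neural crest cells, their glia and the neurons of the lung was followed in whole fetal mouse lungs. The genes were chosen by symbol (Sox10, Ret, Foxd3, Tubb3, Elavl4, Stmn2 and Prph) and are 7 of the 57180 genes counted. Lungs were taken at E14.5 (embryonic day) from the inbred strains C57BL/6J (B6) and A/J, and the fetuses were male according to the study's design text. From E9.5 to E14.5 the dams were dosed by mouth with BMS493, at 3.75 µg per g per day, or with corn oil as the control. BMS493 binds all retinoic acid receptors (RARs) as an inverse agonist, which lowers their activity below the resting level. The 16 poly(A)-selected libraries form 4 groups of 4: B6 control, B6 BMS493, A/J control and A/J BMS493. The labels name no engineered allele in any group. Dams and litters are not named in the labels, so p-values measure the spread between these libraries, part of which may come from litters.

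The neurons and glia inside the lung are known to descend from vagal neural crest cells, which leave the hindbrain region, enter the foregut and follow it into the lung buds. Crest-derived precursors carry the receptor tyrosine kinase Ret, which binds ligands of the GDNF family through GFRα co-receptors, and they settle as small ganglia and nerve fibres along the airway smooth muscle. Retinoic acid acts through nuclear receptors that bind paired half-sites in DNA, and it is known to regulate the development of neural crest and of neurons in many organs. Sox10 and Foxd3 are transcription factors of crest progenitors, and Sox10 stays on in glia. Tubb3 encodes the beta-tubulin of neurons, Elavl4 an RNA-binding protein of neurons, Stmn2 a microtubule regulator of growing axons and Prph an intermediate filament of peripheral neurons.

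Promoter sequence from RefSeq (build GRCm38.p6) was found for 4 of the 7 genes: Foxd3, Elavl4, Tubb3 and Prph. The 250 bases before the start are shown for Tubb3, the 1 gene of the 7 called lower with BMS493 over both strains, and for the upstream start of Elavl4, a neuron gene that was not called. Capitals mark matches on either strand to a RAR half-site, which is AGGTCA or one of the variants searched with it (AGTTCA, with GGTTCA and also GGGTCA), or to a SOX hexamer, which is ACAAAG or the variant form ACAATG. The Tubb3 sequence is chr8:123411303-123411552 on the plus strand and that of Elavl4 is chr4:110351912-110352161 on the minus strand, each printed 5′ to 3′ along its gene.
Tubb3: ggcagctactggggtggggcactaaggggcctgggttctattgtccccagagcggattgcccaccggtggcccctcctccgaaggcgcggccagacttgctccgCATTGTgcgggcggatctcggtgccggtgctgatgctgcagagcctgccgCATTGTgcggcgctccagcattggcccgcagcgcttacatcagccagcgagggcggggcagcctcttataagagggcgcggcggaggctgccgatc
Elavl4: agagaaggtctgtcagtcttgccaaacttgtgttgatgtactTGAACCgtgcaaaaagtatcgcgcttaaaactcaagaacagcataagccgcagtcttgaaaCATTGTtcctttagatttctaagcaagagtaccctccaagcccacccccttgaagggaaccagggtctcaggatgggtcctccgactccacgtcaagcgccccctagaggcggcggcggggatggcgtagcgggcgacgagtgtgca
The Tubb3 window holds ACAATG at 2 places on the opposite strand, starting 146 and 96 bases before the start and read here as CATTGT, and none of the half-sites. Of all 32851 promoters of this length in the table, 10.69% hold ACAATG and 0.8341% hold it at least 2 times. The Elavl4 window holds ACAATG at 147 and the half-site GGTTCA at 208 bases before the start, both on the opposite strand. Elavl4 has 3 more start windows in the table, of which 2 overlap and share the same AGGTCA and AGTTCA, and the third holds none of the motifs. The Foxd3 window holds GGTTCA 1 time, and that of Prph holds none of the motifs. At least 1 of the 4 half-sites is in 38.64% of all promoters. A direct repeat of half-sites with 1, 2 or 5 bases between them, the usual form of a retinoic acid response element, is in 0.4262% and in no window of these 4 genes. The match is of letters only and says nothing of binding in these lungs.

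Between 15207539 and 24146224 fragments per library were assigned to genes. Levels are given as CPM, the count of a gene relative to the TMM-scaled total of its library. Of the 57180 genes, 17276 passed the filter on low counts, among them all 7. A gene was called where its Benjamini-Hochberg adjusted p over these 17276 genes, from edgeR's quasi-likelihood test, was under 0.05. The 10 lung markers (such as Nkx2-1, Sftpc and Foxf1) were all tested and summed to between 1521 and 2482 CPM, while none of the 10 markers of the central nervous system passed the filter, and Olig2, Otx2 and Neurod2 had no counts. Replicate 3 of the B6 BMS493 group stood apart, with a root mean square deviation of 0.370 from its group on the log2 scale against 0.231 to 0.316 in the other 15 libraries, and the values of the 7 genes that rest on it are also given without it. Foxf1, of the lung mesenchyme, was the 1 lung marker called lower with BMS493 over both strains (-0.33, SE 0.059, adjusted p = 0.00235, edgeR), beside 1.09% of all genes called lower. All 5 retinoic acid response genes examined (Cyp26b1, Dhrs3, Rarb, Lrat and Stra6) were called lower with BMS493 in B6 and when averaged over the strains. In A/J all 5 had negative log2 fold changes and 4 were called, the exception being Stra6 (-0.76, SE 0.21, adjusted p = 0.172, edgeR). In B6 the calls of Rarb and Stra6 were lost in 5 and 6 of 8 fits that left out 1 library (adjusted p from 0.0520 to 0.0790 and from 0.0693 to 0.0957, edgeR). The library left out was any B6 control or B6 BMS493 replicate 2, and for Stra6 also replicate 3. Both were also lost with only the B6 libraries fitted (adjusted p = 0.144 and 0.142, edgeR), and Stra6 with a block by replicate number (adjusted p = 0.0502, edgeR). The exons of Rarb overlap Top2b on the opposite strand over 34.06% of their length. In these unstranded counts a fragment that overlaps 2 genes is set aside as ambiguous, so part of the Rarb fragments may be uncounted.

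All 7 genes were expressed at low levels. Ret was the most abundant per exon length, at 2.00 ± 0.509 CPM per kilobase (SD, n = 16), and was above Stmn2 in 16 of 16 libraries. Stmn2 (0.843 ± 0.246 CPM per kilobase) and Tubb3 (0.813 ± 0.427) could not be ordered, since Stmn2 was the higher in 8 of 16. Sox10 followed at 0.517 ± 0.262, Prph at 0.440 ± 0.235, Elavl4 at 0.344 ± 0.0932 and Foxd3 at 0.198 ± 0.106 CPM per kilobase. These neighbours kept their order in 13 (Tubb3 over Sox10), 12 (Sox10 over Prph), 11 (Prph over Elavl4) and 14 (Elavl4 over Foxd3) of 16 libraries. The steps from Tubb3 to Sox10, from Sox10 to Prph and from Prph to Elavl4 were smaller than the SD of the higher gene, and that from Elavl4 to Foxd3 was larger than either SD. This order over all 16 libraries changed between groups. In B6 BMS493 the mean of Elavl4 (0.290 CPM per kilobase) was just above those of Sox10 and Tubb3 (0.284 each). Prph was above Sox10 in B6 controls, and Tubb3 was above Stmn2 in both A/J groups. Behind these levels stood 4330 counts over the 16 libraries for Ret (ENSMUSG00000030110, chromosome 6), 1552 for Stmn2 (ENSMUSG00000027500, chromosome 3), 605 for Elavl4 (ENSMUSG00000028546, chromosome 4) and 521 for Sox10 (ENSMUSG00000033006, chromosome 15). Tubb3 (ENSMUSG00000062380, chromosome 8) had 507, Prph (ENSMUSG00000023484, chromosome 15) 290 and Foxd3 (ENSMUSG00000067261, chromosome 4) 152. Single libraries held as few as 2 fragments of Foxd3 and Prph and 5 of Tubb3.

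**Figure D1:**
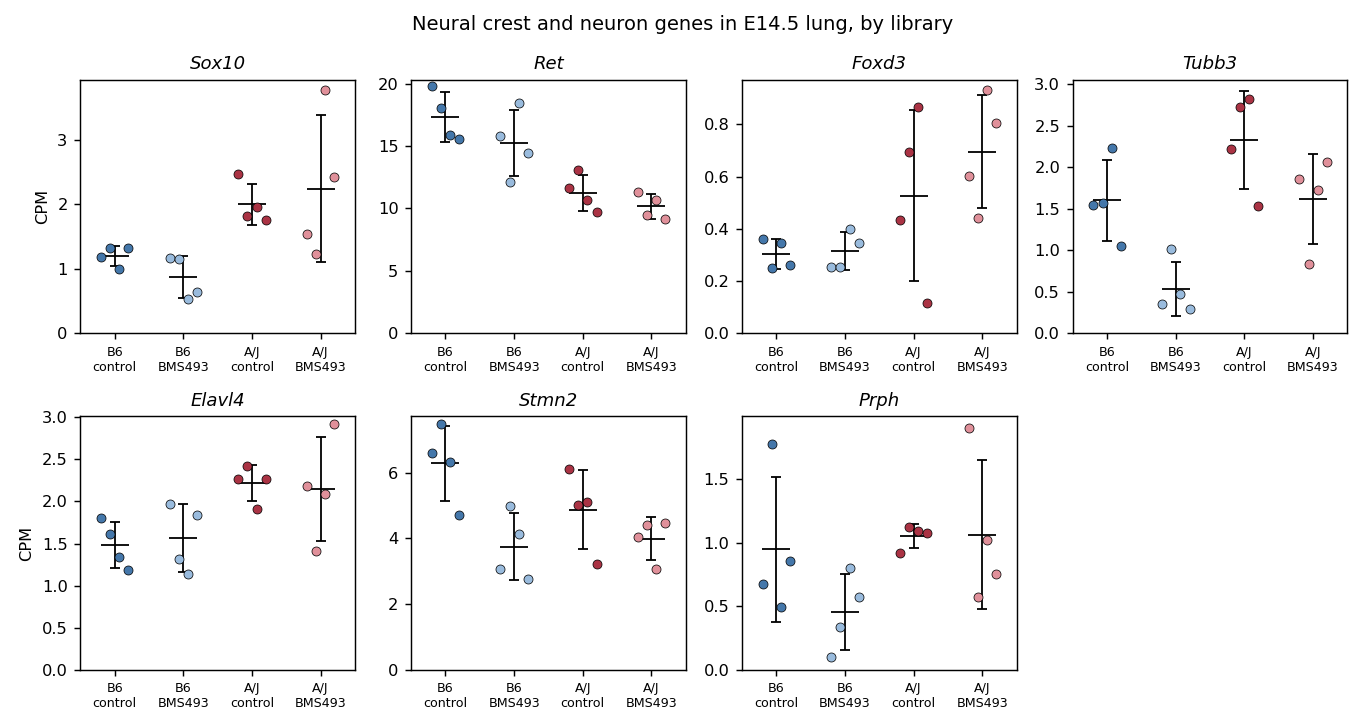
CPM of the 7 genes (y axis, linear, starting at 0) in the 4 groups (x axis): each point is 1 library, the long bar is the mean and the error bar the SD over 4 libraries. Tubb3 in B6 lies between 1.05 and 2.23 CPM in controls and between 0.287 and 1.01 CPM with BMS493, and the A/J values of Ret lie under the B6 values in both treatments.

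Ret, the receptor of crest-derived precursors, was less abundant in A/J than in B6 with either treatment, and it was not called with BMS493 in either strain. In B6 controls Ret stood at 19.8, 18.05, 15.9 and 15.5 CPM (replicates 1 to 4). In A/J controls it stood at 11.7, 13.1, 10.7 and 9.70 CPM. Every B6 control was above every A/J control, and the difference was 1.54-fold (log2 fold change -0.62, SE 0.13, adjusted p = 0.000984, edgeR). With BMS493 the B6 lungs gave 15.9, 12.1, 18.5 and 14.47 CPM and the A/J lungs 11.3, 9.46, 10.7 and 9.17 CPM. Again the strains did not overlap (log2 fold change -0.58, SE 0.13, adjusted p = 0.00199, edgeR). The strain difference was present in the libraries numbered 1 to 8 and in those numbered 9 to 16, at log2 ratios of -0.61 and -0.63 in controls and -0.43 and -0.73 with BMS493. Without replicate 3 of B6 BMS493 the second difference was -0.48 (adjusted p = 0.00796, edgeR). The effect of BMS493 on Ret was -0.19 (SE 0.13) in B6 and -0.15 (SE 0.13) in A/J on the log2 scale, with adjusted p-values of 0.682 and 0.987 (edgeR). Across the 16 libraries Ret and the crest gene Sox10 had a Pearson r of -0.63 in log2 CPM, and of -0.16 with the group means taken out. Which cells of the lung carried Ret was not tested.

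In A/J against B6 controls, Ret was the 1 gene of the 7 that was called, where 16.9% of all genes tested were called and 9.84% were called lower. With BMS493 it was 3 of 7 (Sox10, Tubb3 and Ret), where 20.0% of all genes were called (1370 higher and 2077 lower). Strain ranges without overlap were seen for 3 of 7 genes in controls (Sox10, Ret and Elavl4) against 24.3% of all genes, and for 3 of 7 with BMS493 (Sox10, Ret and Foxd3) against 19.5%. The median log2 fold change of A/J against B6 over the 7 genes was 0.54 in controls and 1.16 with BMS493, beside 0.01 and 0.00 over all genes tested. Ret alone had a negative log2 fold change with BMS493, and Ret and Stmn2 had lower means in A/J controls.

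Sox10, the transcription factor of crest cells and glia, had higher values in A/J. Its B6 controls gave 1.19, 1.32, 0.989 and 1.31 CPM and its A/J controls 2.46, 1.82, 1.96 and 1.76 CPM. These ranges did not overlap, yet the difference of 0.73 (log2, SE 0.32) was not called (adjusted p = 0.122, edgeR). When only the 8 control libraries were fitted it was called (0.74, adjusted p = 0.0441, edgeR), and over all alternatives its adjusted p ran from 0.0441 to 0.260. With BMS493 the B6 lungs gave 1.16, 1.14, 0.534 and 0.632 CPM and the A/J lungs 1.53, 1.23, 3.77 and 2.42 CPM. Sox10 was 2.50-fold higher in A/J here (log2 fold change 1.32, SE 0.33, adjusted p = 0.00482, edgeR), and the ranges again did not overlap. The spread among the A/J BMS493 lungs was wide, and replicate 3 alone was above every other library of the study. Left out, it gave a strain difference of 0.95 (adjusted p = 0.0460, edgeR), and leaving out replicate 3 of B6 BMS493 gave 1.16 (adjusted p = 0.0165, edgeR). The libraries numbered 1 to 8 and 9 to 16 differed in size here, with log2 ratios of 0.26 and 2.41.

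BMS493 did not change Sox10 past the threshold in either strain. The log2 fold change was -0.43 (SE 0.35, adjusted p = 0.752, edgeR) in B6. In A/J it was 0.16 (SE 0.30, adjusted p = 1, edgeR) with all libraries and -0.22 without replicate 3 of A/J BMS493, and the libraries numbered 1 to 8 and 9 to 16 gave -0.63 and 0.73. The difference between the strains' effects was 0.59 (SE 0.46) and was not called (adjusted p = 0.999, edgeR).

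Foxd3, which marks crest progenitors, was the rarest of the 7. Group means were 0.304 ± 0.0575 CPM in B6 controls, 0.313 ± 0.0726 in B6 BMS493, 0.526 ± 0.327 in A/J controls and 0.695 ± 0.217 for treated A/J lungs (SD, n = 4 each). A/J controls ran from 0.113 to 0.865 CPM and so spanned the whole B6 range, while with BMS493 the A/J lungs (0.440 to 0.930 CPM) were all above the B6 lungs (0.252 to 0.400 CPM). No contrast of Foxd3 was called, the nearest being A/J against B6 with BMS493 at 1.16 (log2, SE 0.47, adjusted p = 0.0866, edgeR). Of the 50-base windows of its transcript, 2.593% also occur in Foxd4 or Gm23366, so a small part of its fragments could be left uncounted as matching more than 1 gene or place. For Stmn2 that share was 0.8927%, and for the other 5 genes 0.

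Tubb3, the neuronal beta-tubulin, was lower with BMS493 when averaged over the strains. In B6 it stood at 1.55, 1.57, 2.23 and 1.05 CPM in controls and at 0.353, 1.01, 0.467 and 0.287 CPM with BMS493. The highest treated B6 lung was just under the lowest control. The fall was 2.90-fold (log2 fold change -1.54, SE 0.38) and was not called in B6 alone (adjusted p = 0.0772, edgeR). In A/J the controls stood at 2.22, 2.73, 2.82 and 1.53 CPM and the BMS493 lungs at 1.86, 0.836, 1.72 and 2.07 CPM. These overlapped and differed by -0.53 on the log2 scale (SE 0.32, adjusted p = 0.933, edgeR). Averaged over the strains the log2 fold change was -1.03 (SE 0.25, adjusted p = 0.0292, edgeR), and Tubb3 was the 1 gene of the 7 called in that contrast, where 1.37% of all genes tested were called and 1.09% were called lower. In bulk lung, fewer neurons and less of the transcript per neuron cannot be told apart.

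The Tubb3 call was close to the threshold. With each library left out in turn it was kept in 7 of 16 fits, with log2 fold changes from -1.33 to -0.93. It was lost (adjusted p from 0.0516 to 0.0878, edgeR) without B6 control replicates 1, 2 or 3, B6 BMS493 replicate 4, A/J control replicates 1, 2 or 3, or A/J BMS493 replicates 2 or 3. Without replicate 3 of B6 BMS493, the library that stood apart, it was -1.01 (adjusted p = 0.0414, edgeR). In B6 alone, Tubb3 passed without B6 BMS493 replicate 2 (-2.12, adjusted p = 0.0194, edgeR) and with DESeq2 (adjusted p = 0.0130), and its adjusted p over all alternatives ran from 0.00287 to 0.279. The libraries numbered 1 to 8 and 9 to 16 gave log2 ratios of -1.19 and -2.12 in B6 and -0.88 and -0.20 in A/J. The effects in the strains differed by 1.00 (log2, SE 0.50), which was not called (adjusted p = 0.999, edgeR).

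Between the strains, Tubb3 was 2.90-fold higher in A/J with BMS493 (log2 fold change 1.54, SE 0.38, adjusted p = 0.00438, edgeR), although the lowest A/J lung (0.836 CPM) was under the highest B6 lung (1.01 CPM). In controls the difference was 0.54 (SE 0.32, adjusted p = 0.284, edgeR). The call with BMS493 was kept in 8 of 8 fits that left out 1 library, with log2 fold changes from 1.34 to 2.12. Its log2 ratios in the libraries numbered 1 to 8 and 9 to 16 were 0.98 and 2.33.

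Stmn2, the growing-axon gene, had its largest difference in B6 with BMS493. Its B6 controls stood at 6.60, 7.48, 6.33 and 4.72 CPM and its B6 BMS493 lungs at 3.08, 4.99, 4.14 and 2.76 CPM. Only the lowest control and the highest treated lung crossed. The log2 fold change was -0.75 (SE 0.21) and was not called (adjusted p = 0.150, edgeR). DESeq2 gave an adjusted p of 0.0498, and the range over all alternatives was 0.0130 to 0.481. The A/J means were 4.87 ± 1.20 CPM in controls and 4.00 ± 0.648 CPM in treated lungs (SD, n = 4), a log2 difference of -0.29 (SE 0.21, adjusted p = 0.959, edgeR). Averaged over the strains it was -0.52 (SE 0.15, adjusted p = 0.0832, edgeR), and it was called without B6 BMS493 replicate 2 (adjusted p = 0.0286, edgeR) or without A/J control replicate 4 (adjusted p = 0.0296, edgeR).

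Heart markers were read beside these values, since dissected lungs can carry pieces of heart, and they had a lower range in treated B6 lungs. The 7 listed heart genes summed to between 82.5 and 97.7 CPM in B6 controls and between 42.7 and 93.4 CPM with BMS493, and to between 44.1 and 80.8 CPM and between 60.9 and 81.9 CPM in the A/J groups. Of the 7, 5 were tested and none was called with BMS493 by edgeR in B6, where 2 had an unadjusted p under 0.05, beside 9.11% of all genes. Between the strains all 5 had negative log2 fold changes in A/J controls, and Tnnt2, cardiac troponin T, was called (-1.50, SE 0.35, adjusted p = 0.00596, edgeR). Nppa had no counts and Nkx2-5 at most 12 in a library. Their part in the values of Tubb3 and Stmn2, and in the strain difference of Ret, was not tested.

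Prph and Elavl4, the other neuron genes, were called in no contrast. Prph in B6 had controls at 0.670, 1.78, 0.495 and 0.852 CPM and BMS493 lungs at 0.101, 0.338, 0.801 and 0.574 CPM, which overlapped (log2 fold change -1.14, SE 0.49, adjusted p = 0.475, edgeR). The libraries numbered 1 to 8 gave a log2 ratio of -2.48 and those numbered 9 to 16 one of 0.03. Its A/J means were 1.05 ± 0.0934 CPM without and 1.06 ± 0.589 CPM with BMS493 (SD, n = 4). With BMS493 the strains differed by 1.28 (log2, SE 0.49, adjusted p = 0.0656, edgeR), which was called without A/J BMS493 replicate 2 (1.49, adjusted p = 0.0392, edgeR), without B6 BMS493 replicate 3 (1.66, adjusted p = 0.0279, edgeR) and with DESeq2 (adjusted p = 0.0494), with a range of log2 values from 0.84 to 1.66 over the fits that left out 1 library.

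For Elavl4 the means with and without BMS493 differed by less than their SDs. They were 1.48 ± 0.279 and 1.56 ± 0.403 CPM in B6 controls and BMS493 lungs, and 2.22 ± 0.216 and 2.15 ± 0.619 CPM in A/J (SD, n = 4 each). The log2 fold changes with BMS493 were 0.07 (SE 0.26) in B6 and -0.05 (SE 0.24) in A/J. In controls the A/J lungs (1.91 to 2.42 CPM) were all above the B6 lungs (1.18 to 1.80 CPM), by 0.57 on the log2 scale (SE 0.25), short of a call (adjusted p = 0.131, edgeR).

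Over the 7 genes, edgeR called 0 with BMS493 in B6, where 0.423% of all genes tested were called, and 0 in A/J, where 0.486% were called. At an unadjusted p under 0.05 there were 3 in B6 (Tubb3, Stmn2 and Prph), beside 9.11% of all genes, and 0 in A/J, beside 6.23%. DESeq2 called 2 in B6 (Tubb3 and Stmn2), where it called 162 of the 17276 genes, and 0 in A/J, where it called 158. Ranges without overlap were found for Tubb3 alone in B6, beside 4.71% of all genes, and for 0 of 7 in A/J, beside 4.87%. The median log2 fold change over the 7 was -0.43 in B6 and -0.05 in A/J, beside 0.01 and -0.00 over all genes. The difference between the strains' effects was called for 0 of 7 by edgeR, beside 0.00579% of all genes, and 0 had an unadjusted p under 0.05, beside 3.68%. DESeq2 also called 0 of 7 for this difference, and 2 of all genes. Without replicate 3 of B6 BMS493, the log2 fold changes in B6 were -0.28 for Sox10, -0.30 for Ret, -0.11 for Foxd3, -1.48 for Tubb3, 0.18 for Elavl4, -0.79 for Stmn2 and -1.53 for Prph, and again none was called. Of these, Foxd3 alone turned sign. Without that library A/J differed from B6 with BMS493 by 1.28 for Foxd3 (adjusted p = 0.0921, edgeR), by 1.47 for Tubb3 (adjusted p = 0.0110), by 0.33 for Elavl4 and by 0.12 for Stmn2, on the same side of the threshold as with it. The strains' effects then differed by 0.44 for Sox10 and 0.94 for Tubb3, and the effect on Stmn2 over both strains was -0.54 (adjusted p = 0.0723, edgeR). The strain comparisons share their groups with the treatment comparisons, so the 4 sets of values are not independent of each other.

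**Figure D2:**
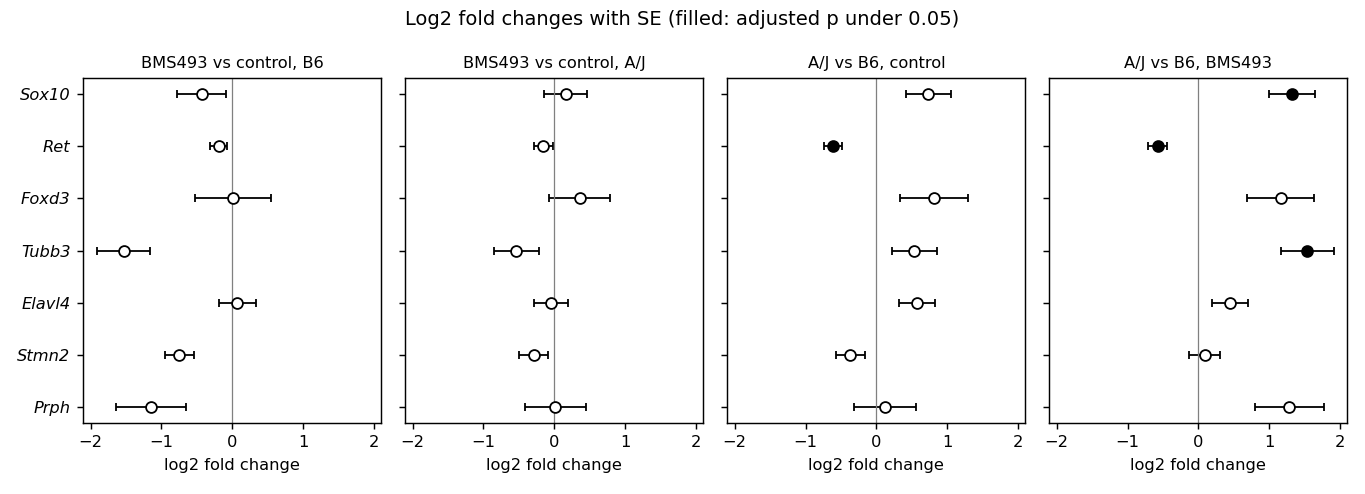
Log2 fold change (x axis) of the 7 genes (y axis) in 4 contrasts: points are edgeR estimates, bars are 1 SE, and filled points passed an adjusted p of 0.05. None is filled for BMS493 in either strain, Ret is filled at -0.62 in controls, and Sox10 (1.32), Ret (-0.58) and Tubb3 (1.54) are filled with BMS493.

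Among 30 genes of most neurons, 23 were tested, and Dcx, a microtubule-associated protein of migrating young neurons, was lower with BMS493 in both strains. B6 controls stood at 38.2, 39.9, 42.2 and 40.1 CPM and B6 BMS493 lungs at 27.3, 13.3, 18.6 and 22.3 CPM. A/J controls stood at 57.8, 61.4, 49.3 and 66.2 CPM and A/J BMS493 lungs at 29.2, 26.0, 28.7 and 30.2 CPM. Dcx was far more abundant than Tubb3, Elavl4, Stmn2 and Prph, whose highest group mean was 6.28 CPM (Stmn2 in B6 controls). Which cells of the lung carried Dcx was not tested. Treated and control lungs did not overlap for Dcx in either strain. The log2 fold change was -0.98 (SE 0.15, adjusted p = 0.00331, edgeR) in B6, -1.04 (SE 0.14, adjusted p = 0.000506) in A/J and -1.01 (SE 0.10, adjusted p = 8.54e-06) over both, and each was called in every fit that left out 1 library. By edgeR, 1 of the 23 was called in each strain and 2 (Tubb3 and Dcx) over both, beside 0.423%, 0.486% and 1.37% of all genes. An unadjusted p under 0.05 was found for 8, 2 and 6 of the 23, beside 9.11%, 6.23% and 10.8% of all genes. Of the other 21, Stmn2 was called by DESeq2 in B6, as given above, and over both strains (adjusted p = 0.0328). Gap43, a growth-cone protein, differed by 0.04 on the log2 scale (SE 0.11) over both strains and was not called by edgeR. Of the 23, 17 had a negative mean effect and the median was -0.12, beside 0.00 over all genes tested.

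The neuron genes went in both directions between the strains. In controls 7 of the 23 were called, beside 16.9% of all genes, 2 higher in A/J (Dcx and Rtn1) and 5 lower (Uchl1, Map2, Mapt, Crmp1 and Tubb2b). With BMS493 10 of the 23 were called, beside 20.0% of all genes, 4 higher (Tubb3, Nefl, Dcx and Rtn1) and 6 lower (those 5 and L1cam). The Tubb2b call with BMS493 was lost without A/J BMS493 replicate 2 (adjusted p = 0.0640, edgeR) or B6 BMS493 replicate 4 (adjusted p = 0.0566). The largest of these differences in controls was in Mapt, the tau gene, which stood at 4.54 to 6.50 CPM in B6 controls and at 1.08 to 1.78 CPM in A/J controls (log2 fold change -2.01, SE 0.24, adjusted p = 8.7e-07, edgeR). Nefl, the light neurofilament chain, differed by 1.14 with BMS493 (SE 0.33, adjusted p = 0.0154, edgeR), which was lost without B6 BMS493 replicate 2 (adjusted p = 0.0728) or A/J BMS493 replicate 3 (adjusted p = 0.0501). Its exons overlap Nefm on the opposite strand over 32.78% of their length, and those of Uchl1 overlap its antisense gene Uchl1os over 18.08%. For both, fragments from these stretches may likewise have been set aside as ambiguous and left uncounted. Dcx with BMS493 was lost without B6 BMS493 replicate 3 (0.45, adjusted p = 0.0848, edgeR) or without A/J BMS493 replicates 1, 3 or 4 (adjusted p from 0.0528 to 0.0628). When only the libraries compared were fitted, the calls with BMS493 of Dcx, Crmp1 and Tubb2b were lost (adjusted p = 0.0709, 0.0512 and 0.0514, edgeR).

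Of 16 crest and glia genes 12 were tested, and 0 were called with BMS493 by edgeR in B6, in A/J or over both, while 3, 3 and 4 of them had an unadjusted p under 0.05, beside 9.11%, 6.23% and 10.8% of all genes tested. Over both strains 9 of the 12 had a negative effect, with a median of -0.13. Between the strains 1 of the 12 was called in controls and 2 (Sox10 and Ednrb) with BMS493, all higher in A/J, beside 16.9% and 20.0% of all genes. Ednrb, the endothelin receptor of crest cells, was higher in A/J with BMS493 by 0.32 (SE 0.09, adjusted p = 0.0181, edgeR). The call was lost without A/J BMS493 replicate 1 (adjusted p = 0.0635, edgeR) and with only the libraries compared (adjusted p = 0.0755, edgeR). The group means of Ednrb lay between 146 and 208 CPM, where Sox10 reached 3.77 CPM in its highest library. Which cells carried Ednrb was not tested. Erbb3, Fabp7 and Cdh19 were called in no contrast.

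**Figure D3:**
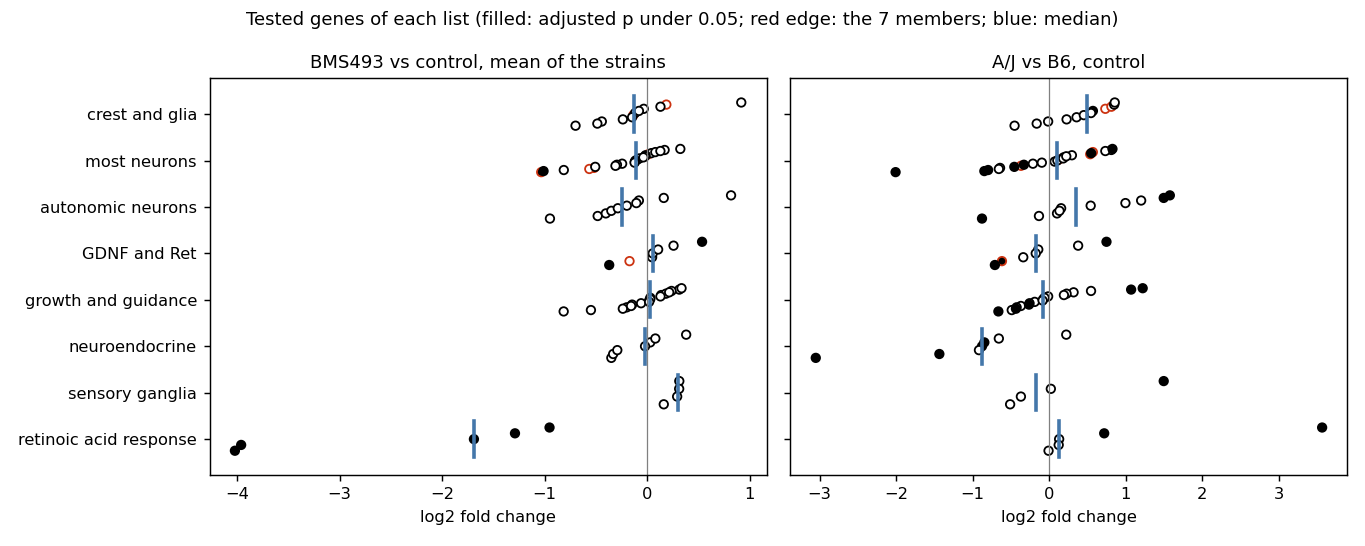
Log2 fold changes (x axis) of the tested genes of 8 gene lists (y axis), with BMS493 over both strains on the left and A/J against B6 in controls on the right: each point is 1 gene, filled points passed an adjusted p of 0.05, a red edge marks the 7 genes and the blue line is the list's median. The medians of the nerve lists lie between -0.24 and 0.30 on the left, where that of the retinoic acid response genes lies at -1.69, and the neuroendocrine list has a median of -0.88 on the right.

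Of 19 autonomic genes listed, 10 were tested. In each treatment 3 of them were called between the strains, with A/J above B6 for 2 and below it for 1, beside 16.9% (controls) and 20.0% of all genes called. Isl1, a transcription factor shared by autonomic and sensory neurons, was at 1.14 to 1.61 CPM in B6 controls and 3.20 to 4.24 CPM in A/J controls (log2 fold change 1.50, SE 0.24, adjusted p = 7.32e-05, edgeR), and at 1.65 (SE 0.24) with BMS493. Every A/J control was above every B6 control. None of the 10 was called with BMS493 by edgeR, and the unadjusted p was under 0.05 for 2 in B6 and 0 in A/J, again beside 9.11% and 6.23% of all genes. Genes of mature transmitter use were near absent: Chat had no counts, and Th, Dbh, Vip, Npy and Chrna3 had at most 7, 8, 4, 3 and 11 in a library.

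Of 9 listed genes of GDNF signalling, Ret among them, 7 were tested. Gdnf, the ligand of Ret with GFRα1, was rare at 0.769 ± 0.168, 0.713 ± 0.215, 0.989 ± 0.104 and 1.12 ± 0.461 CPM (SD, n = 4) in the groups B6 control, B6 BMS493, A/J control and A/J BMS493, and was called in no contrast. Gfra1, its co-receptor, was lower with BMS493 over both strains (log2 fold change -0.37, SE 0.09, adjusted p = 0.0419, edgeR). Gfra2, the co-receptor for neurturin, was higher (0.53, SE 0.12, adjusted p = 0.0283). Neither was called in 1 strain alone.

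Library values show how far these 2 effects reach. Gfra1 stood at 22.6, 20.04, 21.2 and 19.6 CPM in B6 controls against 17.4, 15.1, 21.6 and 15.7 CPM with BMS493. In A/J it was 17.9, 19.3, 17.3 and 21.2 CPM against 14.8, 9.46, 16.4 and 13.7 CPM, without overlap. Gfra2 stood at 46.8, 44.2, 47.6 and 47.7 CPM in B6 controls against 52.6, 94.6, 61.8 and 70.0 CPM, and in A/J at 31.8, 28.5, 31.0 and 22.1 CPM against 34.1, 50.4, 37.6 and 36.5 CPM. Both strains had every treated lung above every control for Gfra2, and B6 BMS493 replicate 2 was the highest. Both calls were marginal: that of Gfra1 was lost with 12 of 16 libraries left out (adjusted p from 0.0524 to 0.102, edgeR; kept only without B6 BMS493 replicates 1 or 3, A/J control replicate 3 or A/J BMS493 replicate 3) and with the sum of the stranded columns (adjusted p = 0.109). Its exons overlap the antisense gene Gm16277 over 7.597% of their length. That of Gfra2 was lost with 8 left out (all 4 B6 controls, B6 BMS493 replicates 3 or 4, A/J control replicates 2 or 4; adjusted p from 0.0525 to 0.0737, edgeR) and with no filter on low counts (adjusted p = 0.0580). Between the strains 3 of the 7 were called in controls and 2 with BMS493, beside 16.9% and 20.0% of all genes. Gfra2 was lower in A/J by 0.71 in controls (SE 0.17, adjusted p = 0.00666, edgeR) and by 0.82 with BMS493 (SE 0.16, adjusted p = 0.00178), and Ret was lower in both as given above. Artn, which encodes the ligand artemin, was higher in A/J controls, at 1.64 to 2.85 CPM against 0.984 to 1.57 CPM in B6 (log2 fold change 0.75, SE 0.24, adjusted p = 0.0345, edgeR). The Artn call was lost without B6 control replicates 1, 3 or 4 or A/J control replicates 1 or 3 (adjusted p from 0.0652 to 0.138, edgeR) and with no filter (adjusted p = 0.106), and with BMS493 the difference was 0.38 (SE 0.24, adjusted p = 0.293).

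**Figure D4:**
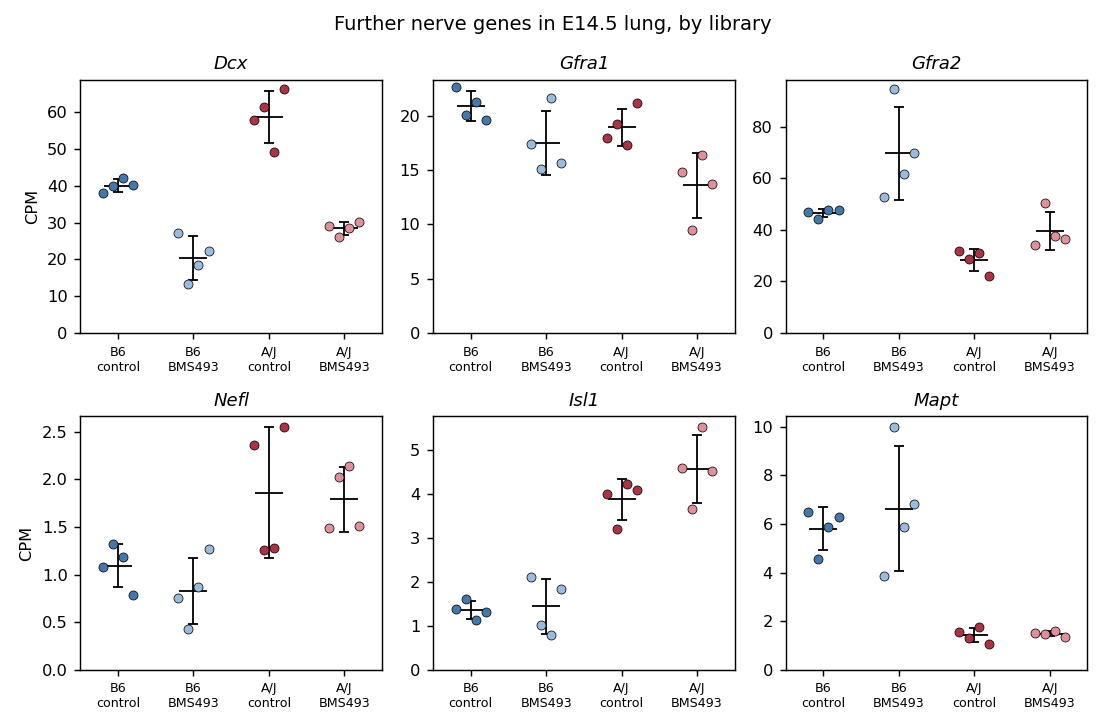
CPM (y axis, linear, starting at 0) of 6 further nerve genes in the 4 groups (x axis): points are libraries, the long bar is the mean and the error bar the SD over 4 libraries. Dcx is lower with BMS493 in both strains (58.7 to 28.5 CPM in the A/J means), Gfra2 is higher, and in controls Isl1 is higher and Mapt lower in A/J than in B6.

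Of 18 growth and guidance genes for nerves, all were tested and 0 were called with BMS493 by edgeR, with 7 in B6 and 4 in A/J at an unadjusted p under 0.05, beside 9.11% and 6.23% of all genes. Between the strains 5 were called in controls, with A/J above B6 for 2 of them, and 6 with BMS493, with A/J above B6 for 2, beside 16.9% and 20.0% of all genes called. Nrp1, a receptor for semaphorins, had means of 132 ± 8.56 CPM in B6 controls and 97.7 ± 10.99 CPM in A/J controls (SD, n = 4), and differed by -0.44 on the log2 scale (SE 0.10, adjusted p = 0.00405, edgeR). Slit2, a guidance ligand of Robo receptors, had means of 141 ± 2.48 and 89.1 ± 7.51 CPM (log2 fold change -0.67, SE 0.14, adjusted p = 0.00328, edgeR). Both were also called lower in A/J with BMS493, at -0.45 and -0.67.

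Other cells of the lung and its surroundings also carry some of these genes, so their markers were read beside them. Pulmonary neuroendocrine genes (12 listed, 7 tested) summed to between 43.6 and 54.1 CPM in the 8 B6 libraries and to between 22.2 and 33.7 CPM in the 8 A/J libraries, and Grp, Pcsk1 and Uchl1 were among those called lower in A/J controls, Grp not without B6 control replicate 3 (adjusted p = 0.0658, edgeR). Calca, a defining peptide gene of these cells, had at most 22 counts in a library, and Chga at most 8. Of the 10 lung markers, Sftpc, a surfactant gene of alveolar type 2 cells and their precursors, was the 1 called between the strains, beside 16.9% (controls) and 20.0% (BMS493) of all genes. It was lower in A/J by 1.79 on the log2 scale in controls (adjusted p = 0.00857, edgeR) and by 2.47 with BMS493 (adjusted p = 0.000955, edgeR). These strain differences run the same way as that of Ret, and their part in the Ret result was not tested. Sensory ganglion genes (9 of 10 matched) summed to between 2.92 and 3.92 CPM in B6 controls and between 5.63 and 6.32 CPM in A/J controls. Isl1, which is also in the autonomic list, was the 1 of 4 tested that was called there, beside 16.9% of all genes. Neurog1 and Prdm12 had no counts and Pou4f1 at most 16. Of 7 sympathetic genes 3 were tested, and they went in both directions. Slc6a2, the noradrenaline transporter, was higher in A/J with BMS493 (1.32, SE 0.39, adjusted p = 0.0183, edgeR), a call lost without B6 BMS493 replicates 2 or 4 or A/J BMS493 replicate 3 (adjusted p from 0.0562 to 0.0650). Gata2, a transcription factor of sympathetic neurons and of other cells, was lower in A/J in controls (-0.67, SE 0.15, adjusted p = 0.00200, edgeR) and with BMS493 (-0.41, SE 0.15, adjusted p = 0.0477), the second call lost without B6 BMS493 replicates 2 or 3 or A/J BMS493 replicates 1, 3 or 4 (adjusted p from 0.0653 to 0.241). The sympathetic list summed to between 15.4 and 17.1 CPM in B6 controls, 8.68 and 13.1 CPM in A/J controls, 11.8 and 18.3 CPM in treated B6 lungs and 11.1 and 13.5 CPM in treated A/J lungs, while Th and Dbh, its defining enzymes, had at most 7 and 8 counts in a library. The part of the sensory and sympathetic genes in the strain differences of Sox10 and Isl1 was not tested. Among 6 skeletal muscle genes Myh8 was higher with BMS493 in A/J (2.41, SE 0.47, adjusted p = 0.0105, edgeR), a call that was lost without A/J control replicates 2 or 3 or A/J BMS493 replicate 4 (adjusted p from 0.0575 to 0.0622). It was also higher in A/J than in B6 with BMS493 (2.21, SE 0.47, adjusted p = 0.00130, edgeR), which was kept in 8 of 8 fits that left out 1 library. The 6 genes summed to between 0.918 and 3.12 CPM in B6 controls, 1.13 and 2.18 CPM in B6 BMS493, 0.511 and 1.25 CPM in A/J controls and 1.44 and 4.13 CPM in treated A/J lungs, and their part in the strain differences of Sox10 and Tubb3 with BMS493 was not tested.

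After the group means were taken out, the 7 genes shared little of their variation across the 16 libraries. The highest Pearson r between any pair of them was 0.58, for Tubb3 and Stmn2, and the lowest was -0.26, for Sox10 and Prph. These values describe libraries that share depth and dissection. For each gene, the genes named here are from the 3 most like it by this r among at least 14543 others with a mean of at least 1 CPM. For Tubb3 these were Cyth1 (0.94), Scara3 (0.83) and Manbal (0.83), with Stmn2 at rank 309. For Stmn2 they were Mtmr3 (0.90), Plb1 (0.90) and Myh7 (0.89), the last a cardiac myosin heavy chain. Sox10 was closest to Gm6421 (0.88), Qars (0.86) and Xpc (0.81), and Ret to 6330537M06Rik (0.85) and Hdhd5 (0.82). Foxd3 was closest to Chst14 (0.91), Ap1s1 (0.90) and Ogg1 (0.87), Elavl4 to Sept6 (0.92), Khdrbs1 (0.92) and Ntm (0.86), and Prph to Ginm1 (0.90), Chmp4c (0.88) and Ms4a4a (0.86). With 16 libraries and this many genes, the top of such a list was high for every one of the 7, so no more than the values is given.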

How the data were processed

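The files hold raw read counts per gene in the gene-count layout of STAR, 1 file per library with a column regardless of strand and 1 for each strand, as deposited by the authors. Per the submitters' processing notes, reads were handled with FastQC, cutadapt and STAR on GRCm39. Versions, annotation and read length are not given in the sources used here. The column without strand was used, since the first strand held 51.0% to 52.0% of stranded counts.

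Symbols, exon lengths and chromosomes came from GENCODE M21, which matched 51884 identifiers holding 98.9% of counts. Of 151 listed genes 150 matched (not Drgx). Promoters came from RefSeq (GRCm38.p6). Counts were filtered with filterByExpr, scaled with TMM and fitted with edgeR 4.0.16 in R 4.3.3 (robust quasi-likelihood, 1 coefficient per group, all 16 libraries, 12 residual degrees of freedom, two-sided). SEs come from the same test, and log2 CPM used a prior count of 2. Python 3.11.15 with pandas 2.3.3 made the tables. The pipeline was tested on simulated data. The exact permutation test planned for genes under the filter was not needed.

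Contrasts were BMS493 against control in each strain, their mean and difference, and A/J against B6 in each treatment. Alternatives were RLE scaling, DESeq2 1.42.0, omitting the filter, requiring a mean of 1 CPM or more, fitting the compared groups alone, a block by replicate number, a term for library numbers 1 to 8 against 9 to 16, the summed stranded columns and leaving out each library. Named were the 7 genes, list genes called in a contrast (at most 5 highest and 5 lowest), Gap43, Gdnf, Gfra1 and Calca, the retinoic acid response genes, and the 3 genes most like each of the 7; some genes that this rule names are not reported here. The 7 genes and the lists were chosen with earlier results of these data known.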

Additional observations from a re-analysis of the deposited data

How the results depend on the processing

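Numbers of genes called with BMS493 depended on the filter and the tool. In B6, 73 genes were called, against 260 with no filter, 27 with only the libraries compared and 162 with DESeq2, and 27 to 201 with 1 library left out. In A/J it was 84, against 178, 133 and 158, and 52 to 90. Over both strains it was 237, against 487 with no filter and 396 with DESeq2, and 165 to 371. For the difference of effects it was 1, against 12 with no filter and 2 with DESeq2, and 1 to 2. Of the 7 genes, 2 (Tubb3 and Stmn2) were called in B6 with no filter and with DESeq2, and 0 to 1 with a library left out. Over both strains, 2 were called with no filter and with DESeq2, and 0 to 2 with a library left out. In strain controls 2 (Sox10 and Ret) were called with only the libraries compared.

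Signs turned for effects of at most 0.16 in size. With 1 library left out, Foxd3 in B6 ran from -0.11 to 0.11, Elavl4 from -0.061 to 0.18 in B6, from -0.23 to 0.11 in A/J, from -0.080 to 0.090 over both and from -0.30 to 0.039 for the difference, Sox10 in A/J from -0.22 to 0.36 and Prph in A/J from -0.43 to 0.22. The difference of effects for Ret ran from -0.060 to 0.15, Prph in strain controls from -0.093 to 0.66 and Stmn2 between strains with BMS493 from -0.032 to 0.27. Gap43 ran from -0.041 to 0.11 over both strains and from -0.024 to 0.13 in strain controls, and Gdnf from -0.12 to 0.12 over both. Of 2152 values for single genes under the alternatives, 1985 kept direction and side of the threshold, 120 lost it, 14 gained it and 33 turned sign. The cause was not tested.

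With the replicate block, 71 genes were called in B6, 92 in A/J and 260 over both strains, and 0, 0 and 1 of the 7; Elavl4 over both turned to -0.011. Same-numbered libraries shared little deviation (r from -0.16 to 0.25, and 6 of 24 matched best with their own number). Between B6 BMS493 and A/J controls, replicates 2, 3 and 4 did match best (r of 0.09, 0.22 and 0.15). Whether same-numbered libraries shared a litter or a batch cannot be read from these values. A filter at a mean CPM of 1 removed Foxd3 and Prph. Of the 7 genes, Foxd3, Prph and Tubb3 had the fewest counts, which limits their precision.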
